A study of Mus musculus with 6 samples.

Results

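The genes described here make prostaglandins, receive them and break them down. They were chosen by name, with earlier results of these data known, and number 10. Of these, Ptgs1 and Ptgs2 are cyclooxygenases, and Ptges, Ptges2 and Ptgis are terminal synthases. Ptger2, Ptger4, Ptgir and Ptgfr are receptors, and Hpgd is a degrading enzyme. Of these 10 genes, 8 stood among the 13283 genes of the deposited table, and Ptger2 and Hpgd were not analysed here. RNA-seq was performed on BAT cells, an immortalized mouse brown preadipocyte line, to ask how loss of MICT1, a microprotein that potentiates PKA activity in brown adipocytes, changes gene expression. The groups were 3 MICT1 KO cultures and 3 control cultures, whose labels give a WT genotype and which the methods describe as carrying a scrambled sgRNA (Scr). All 6 cultures were carried through brown adipocyte differentiation and received 10 µM forskolin, an activator of adenylyl cyclase, for 6 h on day 6, and no culture without forskolin is compared here. According to the methods, the KO cells are pools of one Cas9-expressing line transduced with lentivirus for different sgRNAs and sorted for GFP, rather than clones. The labels do not say which sgRNA pool each KO library came from, so the spread between KO libraries may hold differences between pools as well as between cultures. The induction cocktail of both groups held insulin, isobutyl-methylxanthine, dexamethasone, T3, rosiglitazone and indomethacin, the last of which is itself a cyclooxygenase inhibitor. The methods call the replicates biological, and p-values then measure the spread between cultures of this line.

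Prostaglandins are made from arachidonic acid that phospholipases free from membranes. The cyclooxygenases turn it into the unstable intermediate PGH2, and a terminal synthase then decides which prostanoid is formed, PGE2 in the case of the PGE synthases and prostacyclin (PGI2) in the case of Ptgis. The products leave the cell and act on G protein-coupled receptors of the same or neighboring cells. EP2, EP4 and the prostacyclin receptor couple to Gs and raise cAMP, the same messenger that forskolin raises, whereas the PGF2α receptor couples to Gq. In adipose tissue, prostacyclin and cyclooxygenase-2 have been linked to the formation of thermogenic adipocytes, and PGF2α to inhibition of adipocyte differentiation.

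The libraries held between 15445811 and 17925629 estimated reads, recovered from the steps between low values. The deposited value of a gene is a normalized signal, close to reads divided by a size factor of 0.949 to 1.08 per library, and the value of each of the 8 genes corresponded to whole reads in all 6 libraries. Libraries correlated at 0.987 to 0.990 within groups and 0.929 to 0.940 between them, across the tested genes, which are not replicates. The ribosomal transcript Rn45s took 1.92% of the signal in Scr 2 and 0.507% to 0.831% in the others. The 10 adipocyte markers were all lower in MICT1 KO by limma-trend (median log2 fold change -3.55), and their summed signal was 128865 to 153994 in Scr and 15025 to 21614 in MICT1 KO, with Adipoq (log2 fold change -6.66) and Fabp4 (-3.33) among them. Of 9 brown adipocyte markers only 4 were listed and 1 of the 3 tested was lower, with sums of 146 to 193 in Scr and 149 to 195 in MICT1 KO. The one lower was Ucp1, which defines brown adipocytes. It was at 20.8, 24.1 and 30.5 across the Scr libraries, compared with 1.91, 1.05 and 9.33 across those of MICT1 KO. Most of the brown adipocyte sums came from Cox7a1, with means of 104 in Scr and 134 in MICT1 KO. Cox7a1 was not called (adjusted p = 0.141 by limma-trend). The 7 listed of 9 progenitor or fibroblast markers summed to 36511 to 41759 in Scr and 50640 to 54267 in MICT1 KO, with 4 of 6 tested higher and 1, Pdgfra (-0.19), lower. Most of this signal came from Col1a1 and Col3a1. The mean of Col1a1 went from 17955 in Scr to 30595 in MICT1 KO, and that of Col3a1 from 16430 to 15855.

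To show what lies at the start of the genes that the results turn on, their promoters are given from RefSeq on GRCm38.p6, from 250 bases before the annotated start to 30 after it. Ptgs2 is shown as the one of these genes with the largest rise, Ptgs1 as the other cyclooxygenase, and Ptges as the abundant PGE synthase for which no change was called. The windows are chr1:150099781-150100060 on the plus strand for Ptgs2, chr2:36230176-36230455 on the plus strand for Ptgs1 and chr2:30903268-30903547 on the minus strand for Ptges, whose RefSeq start lies inside the span that GENCODE gives the gene. Capitals mark matches to the motifs searched on both strands.
Ptgs2: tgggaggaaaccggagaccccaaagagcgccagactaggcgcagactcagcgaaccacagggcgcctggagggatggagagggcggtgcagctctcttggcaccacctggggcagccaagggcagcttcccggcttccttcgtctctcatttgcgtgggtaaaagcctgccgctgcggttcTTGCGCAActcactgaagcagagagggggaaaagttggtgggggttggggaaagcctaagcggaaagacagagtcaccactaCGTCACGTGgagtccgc
Ptgs1: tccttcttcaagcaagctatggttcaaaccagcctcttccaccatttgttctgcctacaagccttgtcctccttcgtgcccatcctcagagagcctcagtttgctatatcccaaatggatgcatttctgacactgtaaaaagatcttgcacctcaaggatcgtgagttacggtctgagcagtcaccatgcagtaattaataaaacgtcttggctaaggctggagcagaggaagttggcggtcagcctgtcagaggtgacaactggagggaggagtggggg
Ptges: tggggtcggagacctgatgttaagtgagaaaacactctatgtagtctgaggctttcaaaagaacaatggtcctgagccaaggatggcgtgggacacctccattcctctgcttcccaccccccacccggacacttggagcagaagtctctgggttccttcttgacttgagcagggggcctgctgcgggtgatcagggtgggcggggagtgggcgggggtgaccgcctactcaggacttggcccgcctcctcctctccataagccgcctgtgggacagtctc
In Ptgs2 the first capitals are a C/EBP motif match (TTGCNNAA) at -69 to -62, counted from the start. The second run holds, on the minus strand, TGACG, the core of the cyclic AMP response element (CRE), at +14 to +18, overlapped by the E-box CACGTG at +17 to +22. No motif was found in the Ptgs1 and Ptges windows. Of 32851 RefSeq windows of 250 bases before to 50 after a start, 10.8% held the C/EBP motif, 20.8% the CRE core and 7.15% the E-box. Also searched were the full CRE TGACGTCA (1.79% of windows), AP-1 TGANTCA (7.81%), the CCAAT box (37.4%) and TATAAA (13.6%). Of the other genes, Ptges2 held an E-box at -77 to -72, Ptger4 a CCAAT box at -75 to -71, Ptger2 a CCAAT box at -160 to -156 and a C/EBP match at +40 to +47, and Hpgd TATAAA at +5 to +10. None of these motifs lay in the windows of Ptgir and Ptgfr. The RefSeq starts of Hpgd and Ptger2 lie before their GENCODE starts (chr8:56294585 and chr14:44988195). All matches of both genes therefore lie before the GENCODE starts. The RefSeq start of Ptgfr lies inside the span that GENCODE gives the gene, as for Ptges. RefSeq windows were found for 9 of the 10 genes, all but Ptgis. These matches are letters in a window and were not tested as binding sites.

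Among the 8 listed genes, 6 were higher and 1 was lower in MICT1 KO by limma-trend with an adjusted p under 0.05, against 28.5% higher and 28.3% lower (56.9% in all) of the 12507 genes tested. Changes of at least 2-fold were found in 4 genes, all higher (Ptgs2, Ptger4, Ptgir and Ptgfr), against 7.99% of tested genes higher and 5.76% lower by that much. With the thresholds given in the methods (at least 1.8-fold, p under 0.05 and at least 4 RPKM in some library), 3 were called, Ptgs2, Ptgis and Ptgfr, against 8.53% of tested genes. Here p was the unadjusted p of limma-trend, while the methods used Partek and do not say whether p was adjusted. For 7 of the 8 the groups did not overlap, as in 62% of tested genes. The median log2 fold change of the 8 was 1.02, beside -0.0053 over all genes tested. The genes were chosen with earlier results of these data known, so the counts and this median describe them and test nothing. Ptgir reached the minimum value of 10 only through its MICT1 KO libraries, so its entry into these counts was not independent of its rise. Ptger4 reached it in 2 Scr and 3 MICT1 KO libraries, so its entry also rested in part on MICT1 KO values. RNA was taken from whole cultures, in which fewer cells of a type and less RNA per cell cannot be told apart.

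**Figure D1:**
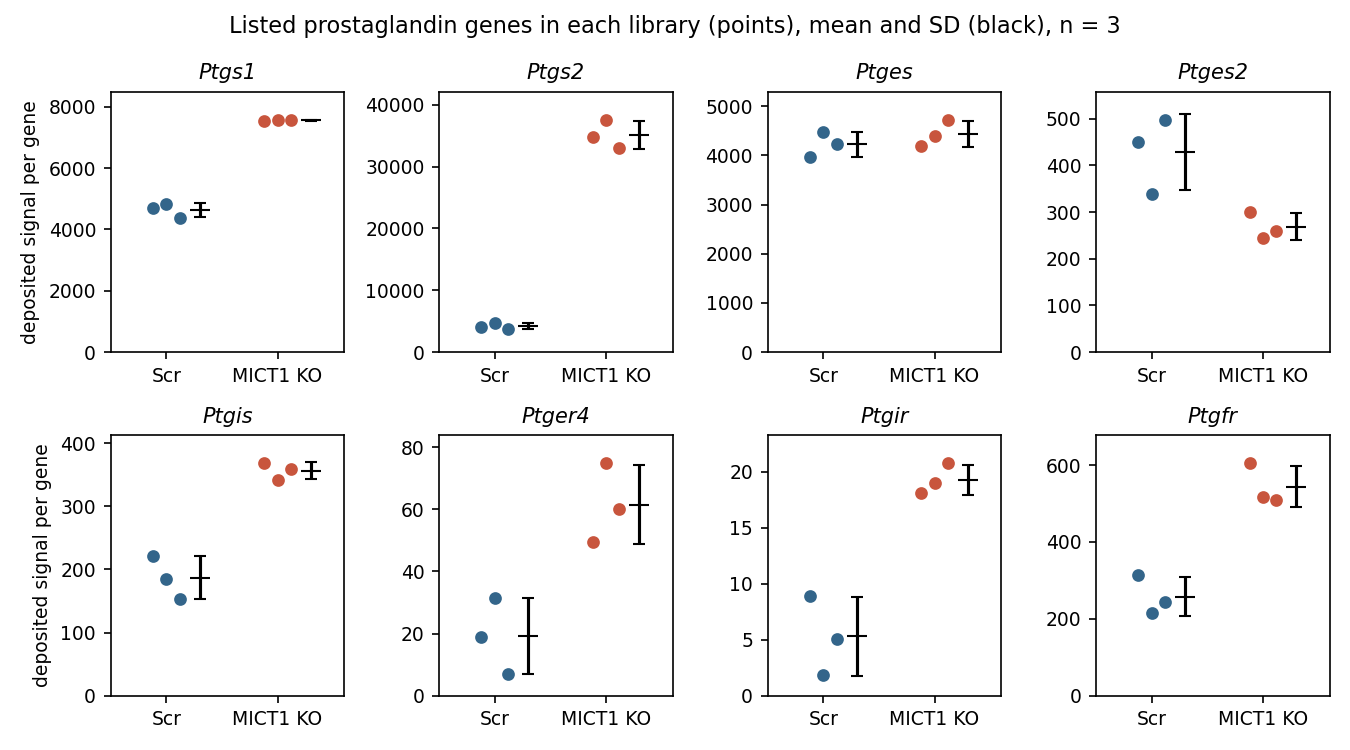
Deposited signal per gene (y axis, linear from 0, scaled per panel) in the 3 Scr and 3 MICT1 KO libraries for the 8 listed genes, with points for libraries and black marks for mean and SD. The Ptgs2 points sit between 3793 and 4759 in Scr and between 32923 and 37539 in MICT1 KO, while the Ptges points of both groups overlap.

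Ptgs2 encodes cyclooxygenase-2, the inducible enzyme whose transcription responds to cAMP, growth factors and cytokines. The gene lies at chr1:150100031-150108227 (GRCm38, plus strand). The 3 Scr libraries held 4116, 4759 and 3793 units of signal, and those of MICT1 KO 34766, 37539 and 32923. Every MICT1 KO library was far above every Scr library. The means were 4222 ± 492 and 35076 ± 2323 (SD, n = 3), an 8.33-fold rise with a log2 fold change of 3.06 (SE 0.069, 95% CI 2.91 to 3.20, adjusted p = 1.30e-18 by limma-trend). Here and for the other genes, the fold is that of the fit on log2(value + 1), which can differ from the ratio of the means. This was the 48th largest rise among the 12507 genes. In RPKM (reads per kilobase of exon, scaled to the library's sum), Ptgs2 went from 56.3 ± 6.02 to 469 ± 31.3, and its rank among 12930 genes with a length went from 850 to 62. About 3727 to 5134 reads per Scr library and 31762 to 36467 per MICT1 KO library stood behind these values.

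Ptgs1 encodes cyclooxygenase-1, the constitutive enzyme, and lies at chr2:36230426-36252272 (plus strand). Its signal was 4697, 4814 and 4374 in Scr, while MICT1 KO had 7528, 7569 and 7569. The groups did not overlap, and the MICT1 KO libraries were closer to each other than the Scr libraries were. The rise was 1.63-fold, from 4628 ± 228 to 7555 ± 23.9 (SD, n = 3), with a log2 fold change of 0.71 (SE 0.053, 95% CI 0.60 to 0.82, adjusted p = 3.58e-10 by limma-trend). RPKM went from 72.8 ± 3.55 to 119 ± 1.11.

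The balance between both cyclooxygenases was then compared per exon length within each library. Ptgs2 made up 42.6%, 45.6% and 42.4% of the summed RPKM of Ptgs1 and Ptgs2 in Scr 1, 2 and 3, and 79.7%, 80.8% and 78.7% in KO 1, 2 and 3. Ptgs1 was thus the more abundant transcript in each Scr library and Ptgs2 in each MICT1 KO library. The summed RPKM rose 4.56-fold, from 129 ± 9.08 to 589 ± 31.4 (SD, n = 3). The mean log2 ratio of Ptgs2 to Ptgs1 went from -0.38 ± 0.11 to 1.98 ± 0.095, that is from a ratio of 0.771 to 3.93 (exact two-sided permutation test, p = 0.1, the smallest that 3 against 3 libraries allow, and 0.125 adjusted over the 5 ratios compared).

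**Figure D2:**
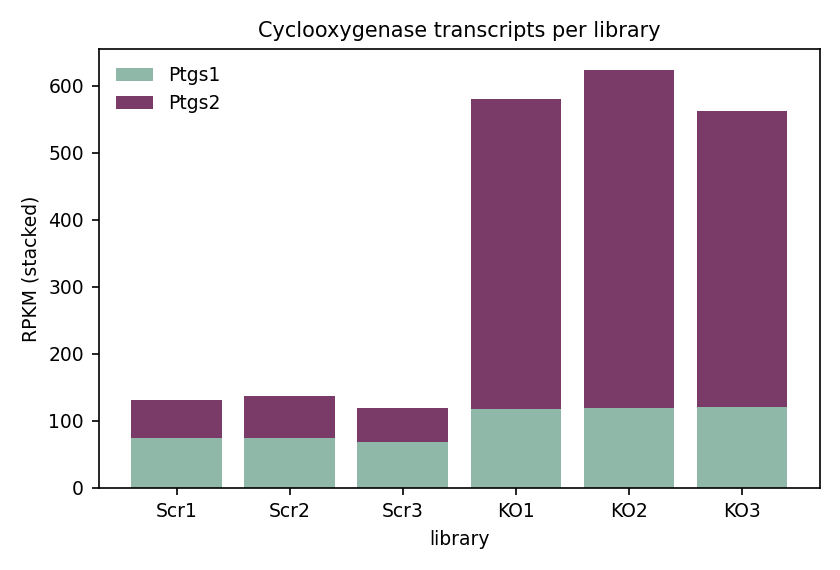
RPKM of Ptgs1 and Ptgs2 stacked (y axis, linear from 0) in each of the 6 libraries (x axis), 1 bar per library. The summed height lies between 119 and 137 in Scr and between 562 and 623 in MICT1 KO, and the Ptgs2 part makes up most of each MICT1 KO bar.

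Of the terminal synthases downstream of the cyclooxygenases, Ptgis rose, Ptges2 fell and Ptges did not pass the test. Ptges encodes microsomal PGE synthase-1, the inducible enzyme that is often coupled to cyclooxygenase-2, and lies at chr2:30889471-30929863 (minus strand). Its signal was 3972, 4477 and 4231 in Scr 1 to 3 and 4198, 4404 and 4724 in KO 1 to 3. The groups overlapped. The means were 4227 ± 253 and 4442 ± 265 (SD, n = 3), with a log2 fold change of 0.072 (SE 0.060, adjusted p = 0.324 by limma-trend) and a 95% CI of -0.053 to 0.20. The interval leaves out a change as large as that of Ptgs1. At 65.7 ± 2.90 RPKM in Scr and 69.3 ± 4.51 in MICT1 KO, Ptges was the most abundant of the 3 terminal synthases chosen in both groups.

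Ptges2 encodes microsomal PGE synthase-2, which is expressed constitutively, and lies at chr2:32395896-32405772 (plus strand). Its signal was 451, 339 and 498 across the Scr libraries, compared with 301, 244 and 260 across those of MICT1 KO. Each MICT1 KO library was below each Scr library, by the smallest margin between Scr 2 and KO 1. Ptges2 fell 1.58-fold, from 429 ± 81.4 to 269 ± 29.3 (SD, n = 3), with a log2 fold change of -0.66 (SE 0.14, 95% CI -0.94 to -0.38, adjusted p = 0.000302 by limma-trend). It was the only one of the 8 genes that was lower in MICT1 KO.

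Ptgis encodes prostacyclin synthase and lies at chr2:167191805-167240604 (minus strand). Its signal was 222, 184 and 154 in Scr, while MICT1 KO had 368, 341 and 360. The groups did not overlap. It rose 1.93-fold, from 187 ± 34.0 to 356 ± 13.6 (SD, n = 3), with a log2 fold change of 0.95 (SE 0.14, 95% CI 0.66 to 1.24, adjusted p = 6.79e-06 by limma-trend). RPKM went from 4.45 ± 0.860 to 8.51 ± 0.294, against 5.19 ± 1.03 and 3.25 ± 0.336 for Ptges2. The ranges of Ptgis and Ptges2 overlapped in Scr, and in MICT1 KO all Ptgis values were above all Ptges2 values.

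The ratios within a library followed from these directions. Ptges stood to Ptges2 at 12.8 in Scr and 21.3 in MICT1 KO by mean log2 ratio of RPKM, and to Ptgis at 14.9 and 8.13. For both ratios the groups did not overlap, and the exact permutation test gave its smallest value, p = 0.1 (0.125 adjusted over the 5 ratios). The transcript of the inducible PGE synthase was in excess over that of prostacyclin synthase in all 6 libraries, by a smaller factor in the MICT1 KO libraries. The test cannot decide whether this factor differs, since its smallest p lies above 0.05.

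**Figure D3:**
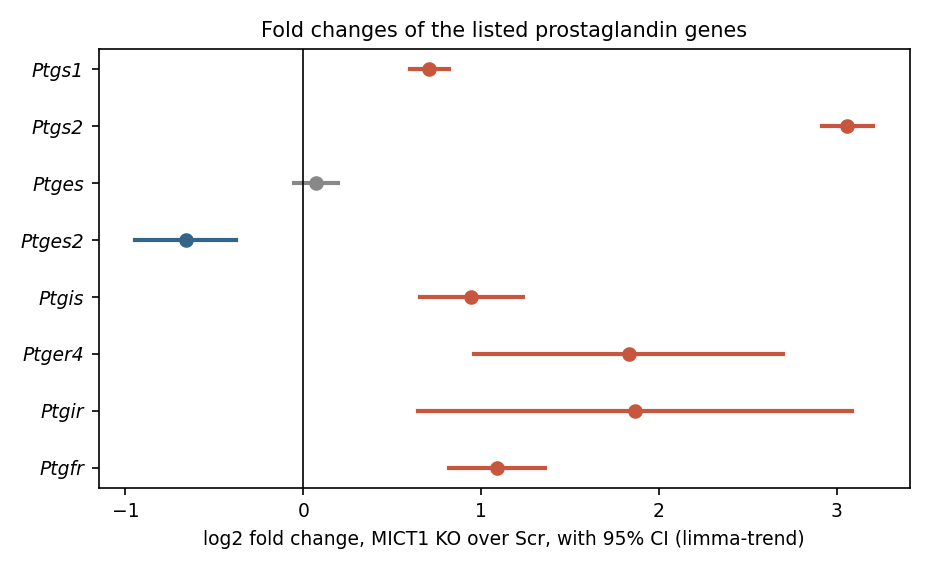
Log2 fold change of MICT1 KO over Scr (x axis) for the 8 listed genes with the 95% CI of limma-trend, red for higher, blue for lower and grey for an adjusted p above 0.05. Ptgs2 lies at 3.06 with a narrow interval, Ptges spans 0, Ptges2 lies at -0.66, and the intervals of Ptger4 and Ptgir are the widest.

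The 3 listed receptors were higher in MICT1 KO, each from a level far below those of the cyclooxygenases and Ptges. Of these, Ptgir entered the test only through its MICT1 KO values, and Ptger4 in part through them. Ptgfr encodes the PGF2α receptor FP and lies at chr3:151796502-151837630 (minus strand). Its signal was 314, 215 and 244 in Scr 1 to 3 and 604, 517 and 509 in KO 1 to 3. The groups did not overlap, and the lowest MICT1 KO library was well above the highest Scr library. Ptgfr rose 2.13-fold, from 258 ± 50.6 to 544 ± 52.9 (SD, n = 3), with a log2 fold change of 1.09 (SE 0.13, 95% CI 0.82 to 1.36, adjusted p = 3.75e-07 by limma-trend). RPKM went from 2.33 ± 0.494 to 4.91 ± 0.446, the highest of the 3 chosen receptors in the table in both groups.

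Ptger4 encodes the PGE2 receptor EP4 and lies at chr15:5206661-5244187 (minus strand). Its signal was 18.8, 31.5 and 7.12 across the Scr libraries, compared with 49.6, 74.8 and 60.1 across those of MICT1 KO, from 19, 34 and 7 reads and 52, 71 and 58 reads. The groups did not overlap, but the Scr libraries differed widely among themselves. The means were 19.1 ± 12.2 and 61.5 ± 12.7 (SD, n = 3), and the fit on log2(value + 1) gave a log2 fold change of 1.83 (3.55-fold, SE 0.42, 95% CI 0.96 to 2.70, adjusted p = 0.000838 by limma-trend). Its exons share 82 bases with Ttc33 on the opposite strand, which was lower in MICT1 KO (log2 fold change -0.61). They share 1015 bases with the pseudogene Gm15937, also on the opposite strand, which was not listed. Whether the counting used strand is not given in the sources used here.

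Ptgir encodes the prostacyclin receptor IP and lies at chr7:16906490-16910905 (plus strand). Its signal was 8.90, 1.85 and 5.09 in Scr, while MICT1 KO had 18.1, 19.0 and 20.7. These values came from 9, 2 and 5 reads and from 19, 18 and 20 reads, so counting error is large. The groups did not overlap, and the means were 5.28 ± 3.53 and 19.3 ± 1.33 (SD, n = 3). The log2 fold change was 1.86 (3.64-fold, SE 0.59, 95% CI 0.64 to 3.08, adjusted p = 0.0102 by limma-trend), and it was 1.30 with a pseudocount of 5 in place of 1. Without any 1 of the MICT1 KO libraries Ptgir no longer passed the filter on low values and had no test. At 0.0975 RPKM in Scr and 0.354 in MICT1 KO, Ptgir ranked 12433 and 11520 of 12930 genes, near the limit of what these libraries can measure.

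Ptgir stood to Ptgis at a ratio of 0.0183 in Scr and 0.0416 in MICT1 KO (difference of the mean log2 ratio 1.19, exact permutation p = 0.1, adjusted 0.125). Without Scr 2, which held 2 Ptgir reads, the difference was 0.57. In both groups the prostacyclin receptor transcript was scarce beside that of its synthase. The ratio of Ptgfr to Ptger4 was 15.4 and 8.77, and here the groups overlapped (difference -0.82, exact permutation p = 0.4, adjusted 0.4). With a smallest possible p of 0.1, none of the 5 ratio tests could have passed a threshold of 0.05. These tests therefore say nothing on whether a balance differed, and the ratios are given as values. Without Scr 3 the difference for Ptgfr to Ptger4 was -0.26, and without Scr 2 it was -1.42.

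Ordered by RPKM, the genes fell into 3 tiers. In Scr the first held Ptgs1, Ptges and Ptgs2, the second Ptges2, Ptgis and Ptgfr, and the third Ptger4 and Ptgir. Within the first tier the ranges nearly touched, with Ptgs2 at 62.5 RPKM in its highest library and Ptges at 62.7 in its lowest. Those of Ptges2 and Ptgis overlapped, as did those of Ptger4 and Ptgir. In MICT1 KO the order was Ptgs2, Ptgs1, Ptges, Ptgis, Ptgfr, Ptges2, Ptger4 and Ptgir, and no neighbors overlapped.

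**Figure D4:**
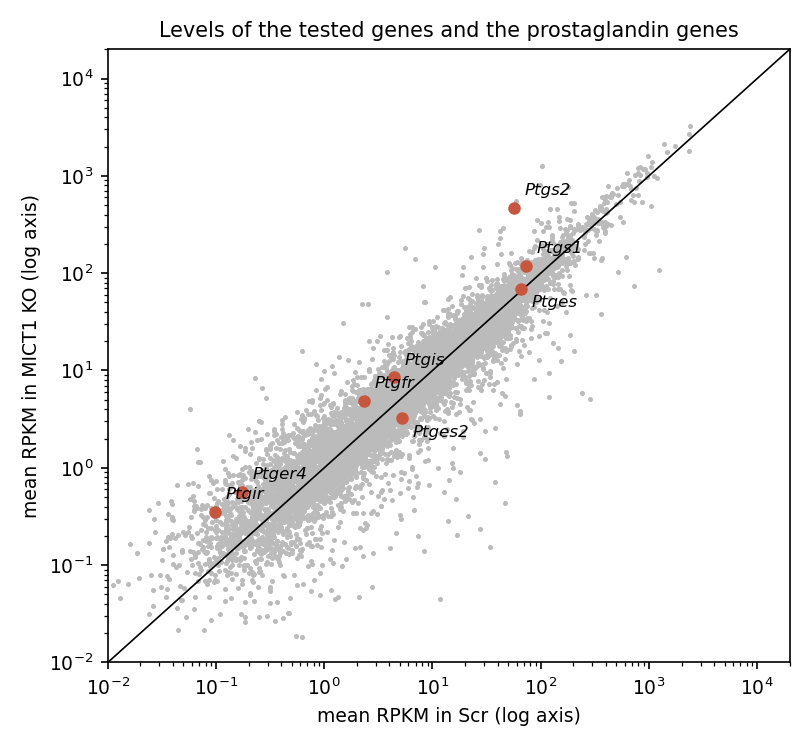
Mean RPKM in Scr (x axis) against mean RPKM in MICT1 KO (y axis), both on log axes, for the tested genes (grey) and the 8 prostaglandin genes (red), with the line of equal levels. Ptgs2 stands far above the line at 56.3 and 469 RPKM, Ptges lies on it, Ptges2 lies below it, and Ptger4 and Ptgir are at the low end.

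The same comparison was made for the other genes of the pathway, in 6 lists of 84 genes. These lists were also chosen with earlier results of these data known. Of these, 49 were listed and 46 tested, and 14 were higher and 18 lower in MICT1 KO by limma-trend (median log2 fold change -0.082), beside 28.5% higher and 28.3% lower over all genes tested. Called changes of at least 2-fold were found in 3 higher and 10 lower genes, beside 7.99% and 5.76% of all genes tested.

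Of the 24 genes of arachidonate release, 13 were listed and 12 tested, 2 were higher and 5 lower (median -0.20), a share of 58.3% called beside 56.9% of all genes tested. Pla2g4a, the cytosolic phospholipase A2 that supplies arachidonate to the cyclooxygenases, was at 468, 438 and 347 in Scr 1 to 3 and 1344, 1281 and 1270 in KO 1 to 3. It rose 3.13-fold (log2 fold change 1.64, SE 0.097, adjusted p = 6.89e-12 by limma-trend), and its groups were far apart. Mgll, the monoacylglycerol lipase that acts in adipocyte lipolysis and also frees arachidonate from 2-arachidonoylglycerol, went the other way, from 2435, 2292 and 2828 to 76.3, 87.5 and 142, a 25.3-fold fall (log2 fold change -4.66, SE 0.15, adjusted p = 5.77e-16 by limma-trend). The secreted phospholipase Pla2g12a fell 3.09-fold (log2 fold change -1.63, SE 0.084, adjusted p = 7.41e-13 by limma-trend). Pla2g4b was called lower as well (-2.39, SE 0.94, adjusted p = 0.0351), but its groups overlapped, and its values are uncertain because it shares 3878 exon bases with Gm28042 on the same strand. Anxa1, the gene of annexin A1 and the most abundant of the list at 85.1 RPKM in Scr and 127 in MICT1 KO, rose by a log2 fold change of 0.57 (adjusted p = 2.90e-08 by limma-trend). Arachidonate release itself was not measured, and a rise of a gene in this list does not by itself mean more release.

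Of 11 genes of arachidonate supply, 10 were tested, with 5 higher and 2 lower (median 0.21), 70% called beside the 56.9% of all genes tested. These counts include Aacs, the gene of acetoacetyl-CoA synthetase, which does not supply arachidonate. Aacs was not called (log2 fold change -0.13, adjusted p = 0.129 by limma-trend). Acot7, an acyl-CoA thioesterase, rose from 26.3 ± 2.48 to 52.9 ± 4.01 RPKM (SD, n = 3; adjusted p = 9.80e-10 by limma-trend). The most abundant was Acsl4, which activates arachidonate to its CoA ester, and it fell from 103 to 74.0 RPKM (log2 fold change -0.48, adjusted p = 2.81e-07 by limma-trend), although its values corresponded to whole reads in 0 of the 6 libraries.

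Of 13 other prostanoid synthases 6 were listed and tested, with 1 higher and 2 lower (median -0.11), 50% called beside 56.9%. Ptges3, the cytosolic PGE synthase and HSP90 co-chaperone p23, had the highest level of the list, 157 RPKM in Scr and 143 in MICT1 KO, and did not pass (log2 fold change -0.14, adjusted p = 0.0532 by limma-trend). Cbr1, a carbonyl reductase that can convert PGE2 to PGF2α, fell 2.02-fold (log2 fold change -1.01, SE 0.11, adjusted p = 1.15e-07).

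Of 6 other receptors and receptor partners, 4 were listed and 2 tested. Ptgfrn, a membrane protein that associates with the PGF2α receptor and lowers its ligand binding, rose modestly, from 14.3 to 17.2 RPKM (log2 fold change 0.26, adjusted p = 0.000745 by limma-trend). Ptger1, the gene of the PGE2 receptor EP1, was lower by a log2 fold change of -1.04 (SE 0.13, adjusted p = 4.75e-07). Its value is uncertain, since the deposited Ptger1 values corresponded to whole reads in 0 of the 6 libraries.

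Of the 7 genes of prostanoid transport and breakdown, 3 were higher and 2 lower (median 0.31), 71.4% called beside 56.9% of all genes tested. Slco3a1, an organic anion transporter that can carry prostaglandins, was at 20.8, 27.8 and 36.6 across the Scr libraries, compared with 177, 219 and 176 across those of MICT1 KO. It rose 6.66-fold (log2 fold change 2.73, SE 0.24, adjusted p = 5.02e-09 by limma-trend) from a low level. Slco2a1, the prostaglandin transporter, was among the other higher genes (log2 fold change 0.39, adjusted p = 0.0316), as was the exporter Abcc4 (0.36, adjusted p = 0.000862). Cbr3, a carbonyl reductase, fell 4.16-fold (log2 fold change -2.06, SE 0.13, adjusted p = 1.85e-11). Zadh2, a prostaglandin reductase with the highest mean over both groups (19.0 RPKM in Scr and 16.3 in MICT1 KO, against 27.5 and 6.62 for Cbr3), was lower (log2 fold change -0.22, adjusted p = 0.0327). The groups of Zadh2 overlapped, with a signal of 971 in Scr 2 and 1018 in KO 1.

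**Figure D5:**
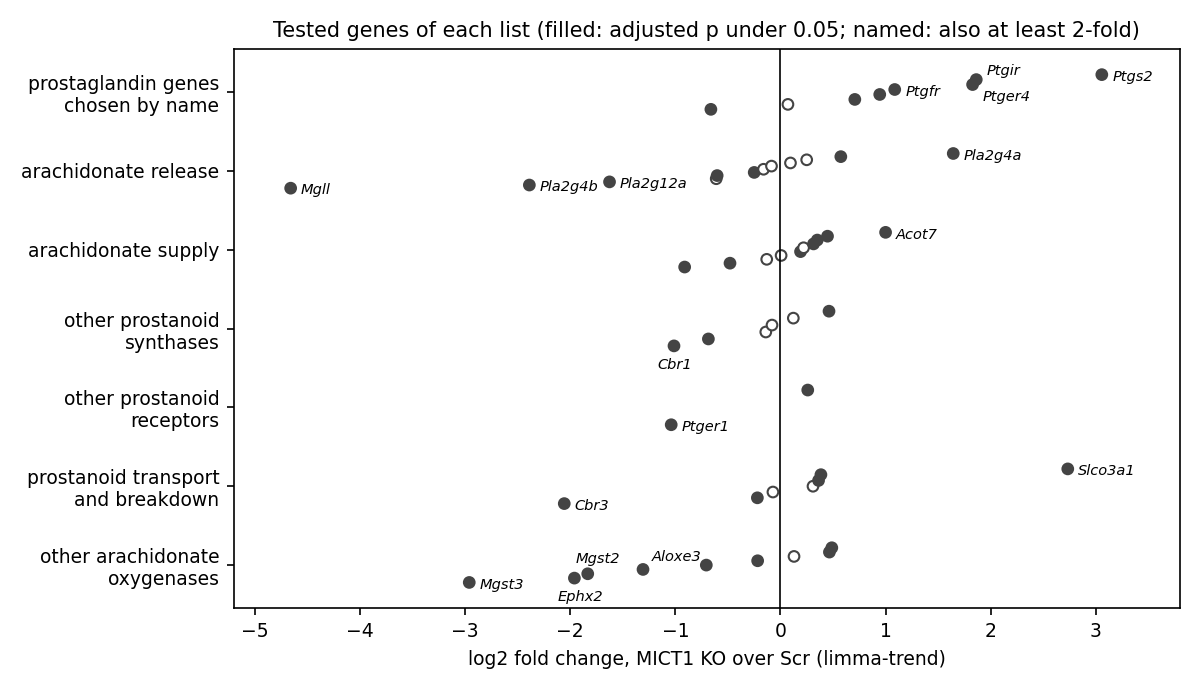
Log2 fold change of MICT1 KO over Scr (x axis) for each tested gene of the chosen genes and of the 6 pathway lists (rows), filled where the adjusted p was under 0.05 and named where the change was also at least 2-fold. The chosen genes lie mostly to the right, from Ptges2 at -0.66 to Ptgs2 at 3.06, while the lists spread to both sides, from Mgll at -4.66 to Slco3a1 at 2.73.

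The cultures were of one immortalized line, and the KO pools were sorted for GFP. Markers of other cell types known to express these genes were counted nonetheless. Of 10 macrophage markers 4 were listed and tested, Adgre1 was not among them, 1 (Cd14, log2 fold change 1.24) was higher, and the summed signal was 267 to 384 in Scr and 516 to 638 in MICT1 KO. Most of the rise of this sum came from Cd14, with means of 192 in Scr and 444 in MICT1 KO. The other macrophage markers tested were not called. None of 6 mast cell markers was listed. Of 6 endothelial markers only Cdh5 was listed, at 5.93 to 12.1 in Scr and 25.9 to 33.4 in MICT1 KO, and Pecam1 was not. Of 6 smooth muscle or pericyte markers 5 were listed without Myh11, 2 of 4 tested were lower, and their sum was 701 to 900 in Scr and 518 to 555 in MICT1 KO. The part of what these markers, and the adipocyte and progenitor markers, record in the differences of the prostaglandin genes was not tested.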

How the data were processed

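RNA-seq covered 3 Scr and 3 MICT1 KO cultures. The methods give alignment to mm10 in Partek, and the submitters' processing notes also name STAR and DESeq2. The values deposited by the authors are a normalized signal per gene, only for genes above 0 in every library. From these, RPKM were computed with GENCODE vM21 exon lengths (12930 genes), and gene positions were taken from the same annotation. No count test was run because only 90.2% to 90.5% of values below 1000 corresponded to whole reads (tolerance 0.05).

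A gene entered the test when 3 or more libraries held a value of 10 or more. Testing was done with limma-trend (limma 3.58.1, R 4.3.3) on log2(value + 1), which understates changes of low genes, with Benjamini-Hochberg adjustment over 12507 genes and a threshold of 0.05. The functions were tested on simulated data. Ratios between genes were compared with exact two-sided permutation tests. Motifs were searched with Python 3.11.15. The genes and lists were chosen with earlier results of these data known. Named were all 10 genes and, of each pathway list, called genes changed at least 2-fold and the gene with the highest mean RPKM. Slco2a1 and Abcc4 were added after their values were seen, as were Ttc33 and Gm28042 for their overlap, and Rn45s. The markers Cd14, Cdh5, Col1a1, Col3a1 and Cox7a1 were added in the same way. Gm15937 was named for its overlap with Ptger4, and Aacs because it does not supply arachidonate. Ratios with Ptger2 or Hpgd were planned and not computed. The samples' labels and the methods describe library preparation differently. MICT1 itself was not analysed here. Alternatives were other scalings, pseudocounts and filters, limma-voom, a robust fit, the call rule of the methods, a replicate block and leaving out each library. Correlations of the deviations of same-numbered libraries were -0.024, -0.015 and 0.064.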

Additional observations from a re-analysis of the deposited data

How the results depend on the processing

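The thresholds of the methods (at least 1.8-fold, p under 0.05 and a maximum of at least 4 RPKM) were applied to the unadjusted p of limma-trend. With them, 1067 genes (8.53%) were called in place of 7113. Of the prostaglandin genes, 3 (Ptgs2, Ptgis and Ptgfr) were called in place of 7, and of the pathway lists 10 in place of 32. A filter at a maximum of 4 RPKM left Ptger4 and Ptgir untested and 5 genes called. With the replicate number as a block (replicate block), 7055 genes, 7 prostaglandin genes and 32 genes of the pathway lists were called. The same-numbered libraries shared only a number, and the block changed no call among the 8 genes. Without 1 library at a time the log2 fold change of Ptgs2 was 2.98 to 3.15, of Ptgs1 0.67 to 0.74, of Ptges 0.026 to 0.11, of Ptges2 -0.82 to -0.55, of Ptgis 0.81 to 1.08, of Ptgfr 0.97 to 1.24 and of Ptger4 1.28 to 2.28. That of Ptgir was 1.38 to 2.28 without each Scr library, with an adjusted p of up to 0.0454 by limma-trend, and without any KO library Ptgir fell under the filter, so 6 genes remained called. Other scalings moved the median of all genes to at most 0.032. Depth limits Ptgir and Ptger4 most, with 2 to 34 reads per Scr library. The difference of the log2 ratio of Ptgs2 to Ptgs1 was 2.30 to 2.41 without 1 library, of Ptges to Ptges2 0.62 to 0.94, of Ptges to Ptgis -1.05 to -0.74, of Ptgir to Ptgis 0.57 to 1.57 and of Ptgfr to Ptger4 -1.42 to -0.26.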

Other observations

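Arachidonate is also oxygenated outside the cyclooxygenase pathway, by lipoxygenases and cytochromes P450, whose products are handled by leukotriene and epoxide enzymes. Of 23 genes of these branches and their receptors 9 were listed and tested, and 2 were higher and 6 lower in MICT1 KO by limma-trend (median log2 fold change -0.71), beside 28.5% higher and 28.3% lower over all genes tested. The 4 called changes of at least 2-fold were falls, as were 5.76% of all genes tested. Mgst3, a microsomal glutathione transferase and the most abundant of the list, fell 7.79-fold, from 95.8 ± 6.99 to 12.7 ± 3.99 RPKM (SD, n = 3; log2 fold change -2.96, SE 0.15, adjusted p = 3.82e-13). Ephx2, the soluble epoxide hydrolase that degrades epoxyeicosatrienoic acids, went from 312, 291 and 317 in the Scr libraries to 74.4, 83.2 and 76.7, a 3.89-fold fall in MICT1 KO (log2 fold change -1.96, SE 0.16, adjusted p = 8.38e-10). Mgst2, which can conjugate leukotriene A4 with glutathione, fell 3.56-fold from a low level (log2 fold change -1.83, SE 0.33, adjusted p = 6.59e-05), and the lipoxygenase gene Aloxe3 fell 2.48-fold (log2 fold change -1.31, SE 0.42, adjusted p = 0.0117 by limma-trend). The adipocyte markers fell in the same libraries, and their part in these falls was not tested.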
